A study of Mus musculus with 141 samples.

Results

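Angptl2, Lgals3, Pltp, Serpinb1a, Myo6, Ramp1, Synpo and Cd24a are 8 of the 46517 genes in the deposited table of mouse CD4 T cell cultures. They were chosen by their measured levels, which were lower in cultures given IL1b than in the culture given IL21, or than in IL6 with TGFb alone, at 24 to 72 h. The late levels in those cultures are therefore the values that chose the genes, and they are given below as a description with no test. Tests are given for times up to 12 h and for cultures without cytokines. All 8 genes passed the filter on low values (a level of 1 CPM, counts per 1000000 counted reads, or more in 3 libraries or more). The filter took in all times of a course set. Up to 12 h Pltp had group means under 1 CPM, so it passed only through its levels at 24 to 72 h. Its tests up to 12 h are thus of a gene kept by the levels that chose it.

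TGFb and IL6 together drive activated naive CD4 T cells towards the Th17 type of helper cell. IL1b acts through a receptor that signals to NF-kB and MAP kinases, while IL21 acts through a receptor that signals to STAT3, and both are added to such cultures as further cytokines. The 8 genes encode proteins of different kinds. Angptl2 (a secreted glycoprotein of the angiopoietin-like family), Lgals3 (galectin-3, which binds beta-galactosides) and Pltp (which transfers phospholipids between lipoproteins) can act outside the cell. Serpinb1a (an intracellular inhibitor of neutrophil serine proteases), Myo6 (a myosin that moves towards the minus end of actin filaments) and Synpo (an actin-associated protein known from kidney podocytes and dendritic spines) act inside it. Ramp1 (the partner that turns the calcitonin receptor-like receptor into a receptor for CGRP) and Cd24a (a small, heavily glycosylated protein held on the membrane by a lipid anchor) act at the cell surface.

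RNA was sequenced from sort-purified naive CD4 T cells (CD4+CD25-CD44lo) of spleen and lymph nodes of C57BL/6 mice, and from these cells cultured for 0.5, 1 or 2 h, for 4, 6 or 12 h, or for 24, 48 or 72 h on plate-bound antibodies to CD3 and CD28. Courses 1 to 3 held naive cells at 0 h, cultures with no added cytokines, and cultures with IL6 (20 ng/ml) and TGFb (1 ng/ml). Courses 4 to 6 held their own naive cells and 3 cocktails built on the same IL6 and TGFb: with IL1b (10 ng/ml), with IL21 (20 ng/ml), or with IL1b and IL21. Each of the 47 groups had 3 libraries, 1 per course, 141 in all. Here they are called the IL1b cocktail, the IL21 cocktail and the IL1b plus IL21 cocktail. The labels call the libraries of a group biological replicates but do not say which mice or cultures they share, so a p-value here measures the spread between these libraries. The cocktails and IL6 with TGFb were never in the same courses, so a difference between those cultures cannot be told apart from one between the courses.

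Depth was 15952020 to 47068754 reads a library (median 25403424), so 1 read is far below 1 CPM. Levels are CPM after scaling of all libraries together (TMM factors). Log2 differences are of CPM plus 0.5, which understates the change of low genes, and SEs come from a spread shared over all groups of a course set. The no-cytokine libraries of course 1 stood apart: on the log2 scale they lay 0.424 (48 h) and 0.621 (72 h) from their group means as root mean square over genes, against a median of 0.159 in courses 1 to 3. Summed CD4 T cell markers (11 genes) were 3464 to 4549 CPM in the IL1b cocktail and 3617 to 5036 in the IL21 cocktail at 24 to 72 h. Summed myeloid markers (14 genes, 3 of them with a mean of at least 1 CPM in each cocktail) were 12.7 to 81.6 and 10.0 to 94.0 CPM in these cultures, and B cell markers (10 genes, 1 of them at 1 CPM or more) 3.18 to 17.4 and 2.54 to 8.39. Macrophages are known to express Lgals3 and Pltp; the part of such cells in the results was not tested. These are bulk libraries, so fewer cells of a kind and less RNA per cell cannot be told apart.

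**Figure D1:**
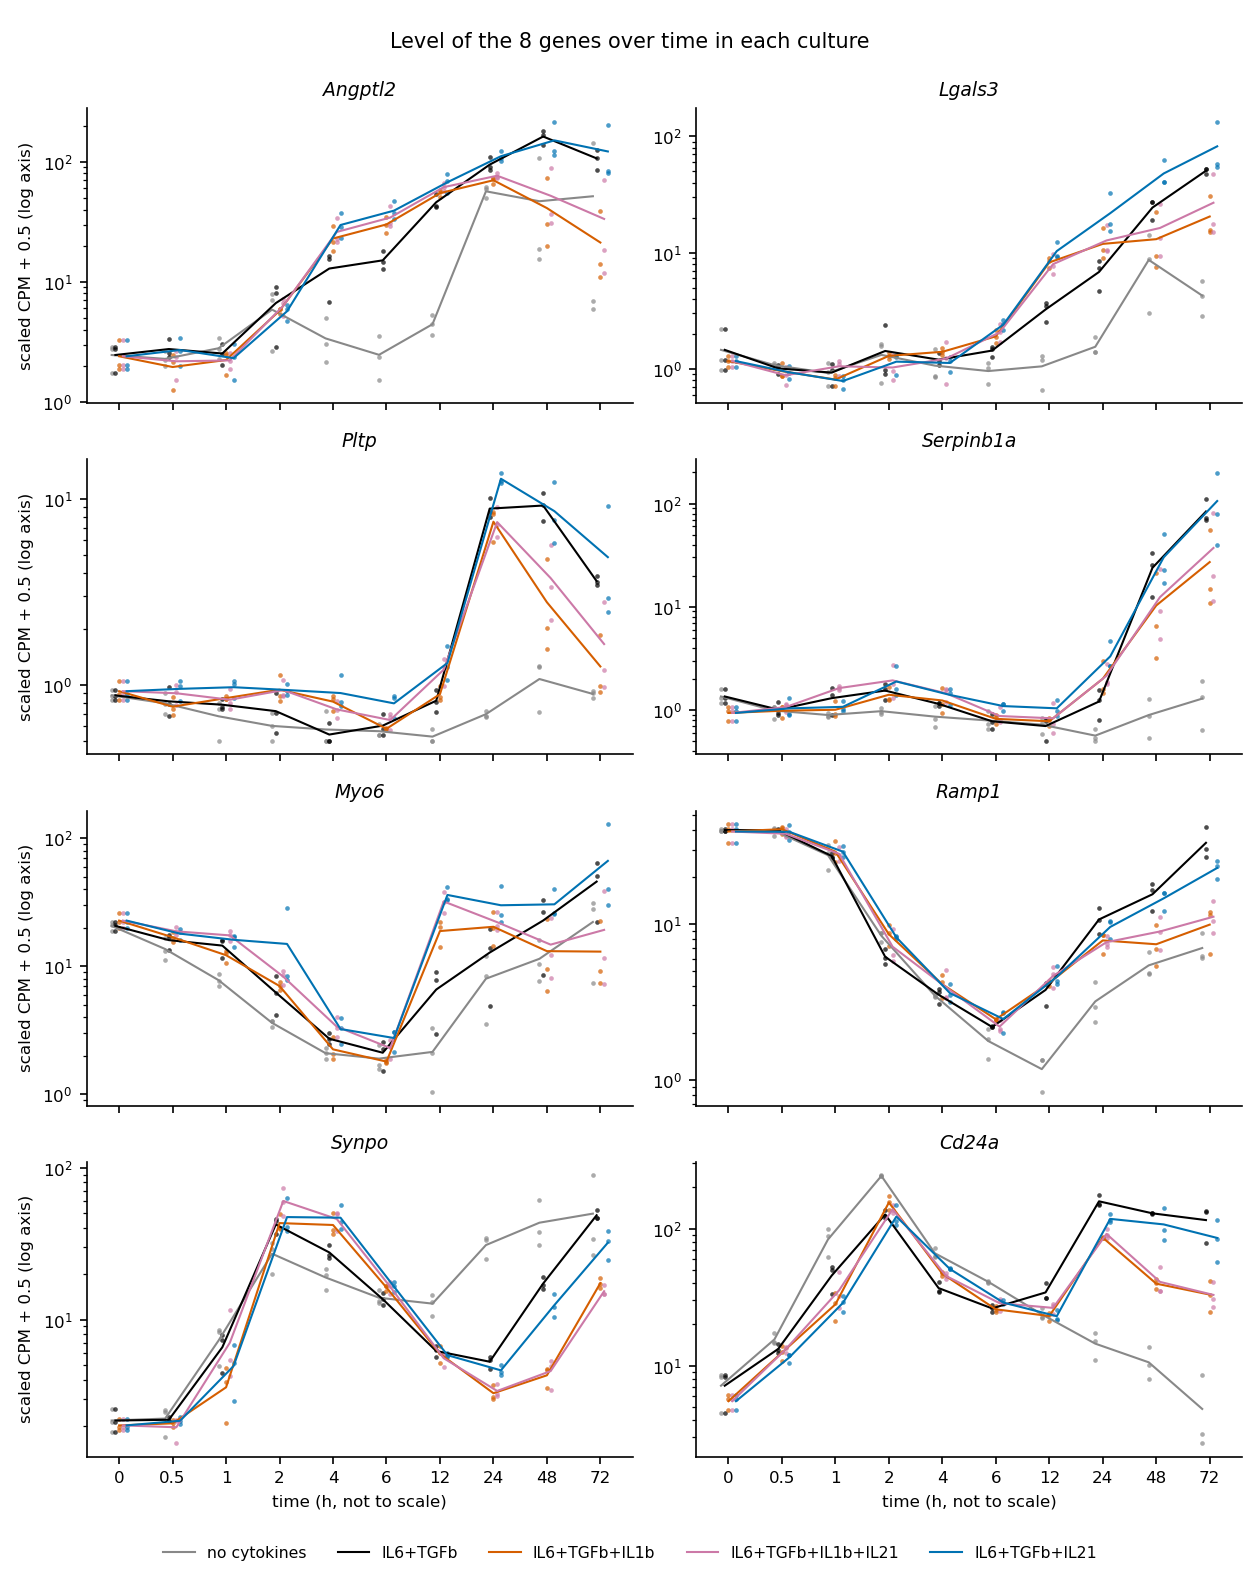
Level of each of the 8 genes (scaled CPM plus 0.5, log axis) against time (h, not to scale) in the 5 cultures; points are single libraries, lines join the means of 3 libraries, and 0 h is the naive group of the same courses. From 24 h the lines of both IL1b cocktails run below that of the IL21 cocktail in all 8 panels.

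RefSeq's promoter table (build GRCm38.p6) held 5 of the 8 genes. The 250 bases before the start site are shown for 4 of them, the 3 secreted products and Myo6, the gene nearest to the threshold between the IL1b and IL21 cocktails at 4 to 12 h. They lie at chr2:33215711-33215960 (plus strand), chr14:47373610-47373859 (plus strand), chr2:164857709-164857958 (minus strand) and chr9:80164784-80165033 (plus strand). Capitals mark matches to either of 2 motifs on either strand: for NF-kB the letters GGG, then any 5 bases, then CC, and for SMAD proteins CAGACA; neighbouring matches may overlap.
Angptl2: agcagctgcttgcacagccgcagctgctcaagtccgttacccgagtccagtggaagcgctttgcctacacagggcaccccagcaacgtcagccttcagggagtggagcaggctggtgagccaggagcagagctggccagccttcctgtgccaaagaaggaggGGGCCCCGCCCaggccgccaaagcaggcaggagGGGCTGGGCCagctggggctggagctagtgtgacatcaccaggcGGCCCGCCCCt
Lgals3: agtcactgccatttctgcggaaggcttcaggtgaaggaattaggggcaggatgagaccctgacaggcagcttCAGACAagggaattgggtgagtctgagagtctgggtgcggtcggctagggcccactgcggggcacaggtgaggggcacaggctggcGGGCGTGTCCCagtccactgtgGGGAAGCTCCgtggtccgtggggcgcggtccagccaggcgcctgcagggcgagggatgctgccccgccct
Pltp: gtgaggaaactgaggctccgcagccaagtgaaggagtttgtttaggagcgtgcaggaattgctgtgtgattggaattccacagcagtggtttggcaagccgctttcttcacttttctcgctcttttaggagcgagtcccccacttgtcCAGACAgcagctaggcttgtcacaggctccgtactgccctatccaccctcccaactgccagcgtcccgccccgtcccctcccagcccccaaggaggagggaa
Myo6: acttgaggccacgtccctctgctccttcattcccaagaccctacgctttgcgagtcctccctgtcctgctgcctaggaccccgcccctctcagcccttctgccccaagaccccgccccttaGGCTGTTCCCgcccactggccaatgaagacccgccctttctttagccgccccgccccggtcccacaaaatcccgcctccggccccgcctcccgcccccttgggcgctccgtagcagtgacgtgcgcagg
The NF-kB letters occurred in 3 of the 5 windows (Angptl2, Lgals3 and Myo6) and in 45.8% of all 32851 windows of the same length in the table. The SMAD letters occurred in 2 of the 5 (Lgals3 and Pltp) and in 17.1% of all windows. The letters TTCNNNGAA for STAT proteins, TGANTCA for AP-1 and AGGTCA for ROR receptors were in 0 of the 5, against 7.02%, 6.75% and 14% of all windows. The Ramp1 window held none of the 5 motifs. A match is a string of letters and was not tested for binding.

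Among the secreted products, Angptl2 was low in naive cells (1.25, 2.39 and 2.24 CPM in courses 1 to 3), and stood at 22.5 to 29.2 CPM as a group mean at 4 h in the cocktails. At 72 h it was 38.1, 13.7 and 10.4 CPM in the IL1b cocktail and 69.4, 11.4 and 18.03 with IL1b plus IL21 (courses 4, 5 and 6). The IL21 cocktail had 200.3, 80.9 and 83.1 CPM at that time, above every library of both IL1b cocktails. The IL21 cocktail mean was 5.85 times that of the IL1b cocktail, and within single courses the ratio was 5.25 to 7.95. At 24 h the gap was smaller: 73.3, 71.3 and 64.4 CPM in the IL1b cocktail against 123, 108 and 102 in the IL21 cocktail. In the IL1b cocktail the mean was 69.7 CPM at 24 h and 20.8 at 72 h, while in the IL21 cocktail it was 111 and 121 CPM.

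Lgals3 was at 0.477 to 1.68 CPM in the naive cells of courses 1 to 3 and reached its highest levels late. At 72 h the IL1b cocktail had 30.2, 15.1 and 14.5 CPM and the IL21 cocktail 133, 53.5 and 57.5. The groups did not overlap, and the mean was 4.09 times higher in the IL21 cocktail. With IL1b plus IL21 the libraries were at 47.3, 14.5 and 17.1 CPM, also all below the IL21 cocktail. Unlike Angptl2, Lgals3 did not peak earlier in the IL1b cocktail: its mean there was 11.4, 12.5 and 19.9 CPM at 24, 48 and 72 h. Without cytokines it was 2.33, 3.76 and 5.19 CPM at 72 h, below every cocktail library.

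Pltp had a narrow window of expression, with group means under 1 CPM in 36 of 47 groups. It was highest in the IL21 cocktail at 24 h, at 13.3, 12.0 and 11.7 CPM, when the IL1b cocktail had 7.95, 7.78 and 5.37 and IL1b plus IL21 8.50, 6.78 and 5.72. At 72 h the IL1b cocktail had 1.36, 0.492 and 0.413 CPM, from 10 to 49 reads, and the IL21 cocktail 8.68, 1.98 and 2.42. The 2 groups did not overlap at either time, and the ratio of their means went from 1.75 to 5.76. At 72 h course 4 carried much of the IL21 mean, yet within single courses the IL21 cocktail was 4.01 to 6.36 times higher.

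Of the intracellular proteins, Serpinb1a appeared last. Its mean was under 1 CPM in 32 of 47 groups, among them all naive and no-cytokine groups. At 72 h it reached 55.1, 14.3 and 10.3 CPM in the IL1b cocktail and 198, 39.2 and 78.5 in the IL21 cocktail. These groups overlapped, because course 4 of the IL1b cocktail lay above course 5 of the IL21 cocktail. Within courses the IL21 cocktail was higher in each of the 3, by 2.73 to 7.60 times. Serpinb1a was the 1 gene of the 8 whose IL1b and IL21 cocktails overlapped at 48 h and at 72 h. The mouse genome holds close copies of this gene; Serpinb1b and Serpinb1c had means of at most 0.0900 and 0.0196 CPM in the cultures at 72 h; no label says how reads shared between copies were counted.

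Myo6 was present in naive cells (18.4, 20.5 and 21.7 CPM in courses 1 to 3), stood at 1.30 to 2.25 CPM as a group mean at 6 h in the cocktails and was higher again later. The return was uneven at 12 h: 21.5, 19.9 and 13.6 CPM in the IL1b cocktail, 37.9, 31.3 and 25.7 with IL1b plus IL21, and 41.4, 32.8 and 32.7 in the IL21 cocktail. At that time the IL1b cocktail lay below both others without overlap, and IL1b plus IL21 overlapped the IL21 cocktail. By 72 h IL1b plus IL21 was at 38.4, 6.77 and 11.1 CPM, close to the IL1b cocktail at 22.1, 8.60 and 6.86. The IL21 cocktail stood at 129, 29.9 and 39.7 CPM, above all libraries of the IL1b cocktail, but it overlapped IL1b plus IL21. Its mean was 5.29 times that of the IL1b cocktail, and course 4 carried much of the IL21 mean.

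Synpo followed a course of its own. It went from 1.51 CPM in naive cells of courses 4 to 6 to 42.6, 46.8 and 59.8 CPM as group means at 2 h in the IL1b, IL21 and IL1b plus IL21 cocktails, and stood at 2.77, 4.13 and 2.88 CPM at 24 h. The return after that was uneven: at 48 h the IL1b cocktail had 4.19, 4.14 and 3.04 CPM and the IL21 cocktail 11.6, 14.3 and 9.91. At 72 h they had 16.5, 18.4 and 15.7 against 24.2, 37.9 and 32.6 CPM. The groups did not overlap at either time, and the ratio of means narrowed from 3.15 to 1.87.

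At the cell surface, Ramp1 started high, at 40.5, 39.3 and 39.3 CPM in the naive cells of courses 1 to 3. It stood at 1.69 to 1.95 CPM as a group mean at 6 h in the 3 cocktails and was higher again at 72 h. At 72 h the IL1b cocktail had 11.4, 10.9 and 5.95 CPM, IL1b plus IL21 13.6, 9.98 and 8.32, and the IL21 cocktail 23.2, 25.1 and 18.99. The IL21 cocktail was above every library of the other 2, with a mean 2.38 times that of the IL1b cocktail. All of these libraries were below the naive ones, the lowest of which had 32.7 CPM.

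In the cocktails Cd24a peaked at 2 h, with means of 122 to 155 CPM, stood at 22.5 to 25.9 CPM at 12 h and was higher again at 24 h. With IL6 and TGFb alone its mean was 126 CPM at 2 h and higher, at 158 CPM, at 24 h. At 24 h the IL1b cocktail had 84.9, 86.3 and 85.1 CPM and the IL21 cocktail 126, 110.4 and 115. At 72 h they had 24.0, 41.2 and 32.5 against 56.5, 115 and 83.5 CPM, and IL1b plus IL21 had 26.5, 40.6 and 30.0. The IL21 cocktail was above all libraries of both IL1b cocktails at 24, 48 and 72 h. Copies of Cd24a exist in the mouse genome, so its reads may be counted with some uncertainty.

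**Figure D2:**
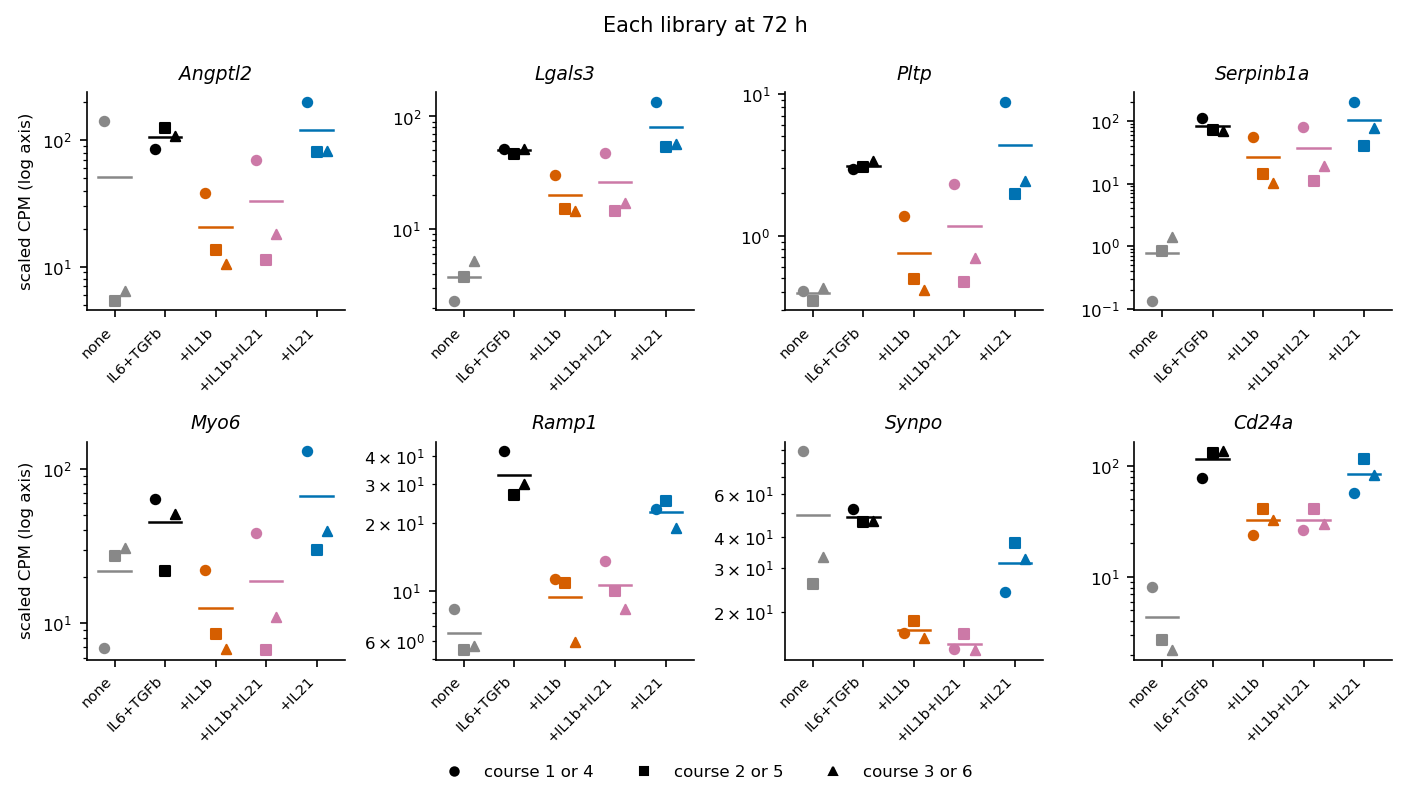
Level (scaled CPM, log axis) of each gene at 72 h in each library of the 5 cultures; symbols give the course, short lines the mean of 3 libraries. The IL21 cocktail is above the IL1b cocktail without overlap in 7 of 8 genes, Serpinb1a being the other.

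Over the 8 genes, the IL1b cocktail lay below the IL21 cocktail without overlap for 4 at 6 h, 4 at 12 h, 4 at 24 h, 7 at 48 h and 7 at 72 h. The same held for 3.94%, 9.21%, 6.68%, 5.37% and 7.78% of the 14859 genes tested. Earlier, at 0.5, 1, 2 and 4 h, it held for 0, 1, 1 and 1 of the 8 (7.23%, 2.54%, 3.16% and 9.59% of all genes). At 4 h 1 of the 8 lay above without overlap (3.78% of all genes). Pltp and Serpinb1a, with means under 1 CPM in both cocktails, were among the 4 at 6 h and at 12 h. From 24 h on these counts follow from how the genes were chosen and are read no further. The median log2 difference of the 8 went from -0.60 at 24 h to -1.63 at 48 h and -1.86 at 72 h. For IL1b plus IL21 against the IL21 cocktail it was -0.49, -1.40 and -1.57, with 4, 7 and 5 genes without overlap (6.43%, 3.44% and 4.44% of all genes). Both comparisons share the IL21 libraries. Course by course, the IL1b cocktail was below the IL21 cocktail in 24 of 24 pairs of gene and course at 24, 48 and 72 h, against 47.8%, 53.1% and 47.6% of such pairs over all genes. So was the IL1b plus IL21 cocktail (47.8%, 43.6% and 43.7%). These tallies too follow from the choice of genes. At 12 h, a time that did not choose them, they were 20 of 24 for the IL1b cocktail (64.2% over all genes) and 16 of 24 for IL1b plus IL21 (50.3%). Such pairs are not independent, since the 8 genes were measured in the same 3 courses. For IL1b plus IL21 against IL21 at 12 h the course number did not pair libraries (r of 0.221, -0.0608 and -0.0155 in courses 4, 5 and 6).

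Between the 2 IL1b cocktails all 8 genes overlapped at 24, 48 and 72 h, with median log2 differences (IL1b plus IL21 minus IL1b) of 0.10, 0.32 and 0.30. Over all genes few were apart either: 3.14%, 0.942% and 1.66% were lower without overlap with IL21 added, and 3.47%, 3.14% and 2.48% higher. Course by course, IL1b plus IL21 was below IL1b alone in 8, 6 and 11 of 24 pairs (48.1%, 38.8% and 48.1% over all genes).

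Courses differed as well. Course 4 was the highest of the 3 in all 6 cocktail groups of 48 and 72 h for Angptl2, Lgals3, Pltp, Serpinb1a and Myo6, and in 5 of 6 for Ramp1. For Synpo and Cd24a course 5 was highest in 5 of 6. This spread is the reason that ratios within a course are given beside the means of Angptl2, Pltp and Serpinb1a. For the other genes the IL21 cocktail at 72 h was also above the IL1b cocktail in each course. It was 3.54 to 4.42 times higher for Lgals3, 3.47 to 5.84 for Myo6 and 2.04 to 3.19 for Ramp1. For Synpo it was 1.46 to 2.08 times higher, and for Cd24a 2.36 to 2.79 times.

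Against IL6 with TGFb, with the 0 h group of each course set subtracted, all 8 genes were lower in the IL1b cocktail at 72 h. The log2 differences ran from -1.15 ± 0.50 (SE) for Lgals3 to -2.49 ± 0.73 for Angptl2. In the IL1b plus IL21 cocktail they ran from -0.88 ± 0.50 for Lgals3 to -2.04 ± 0.73 for Angptl2. In the IL21 cocktail they lay between -0.53 ± 0.35 (Synpo) and 0.81 ± 0.50 (Lgals3). At 24 h the IL1b cocktail was not lower for every gene: Lgals3 was 1.04 ± 0.50 and Serpinb1a 1.24 ± 0.61 higher, and Cd24a 0.55 ± 0.30 lower. Myo6 was not lower either, with means of 19.9 CPM in the IL1b cocktail and 12.3 with IL6 and TGFb, and overlapping libraries. Its 0 h means were 22.3 CPM in courses 4 to 6 and 20.2 in courses 1 to 3.

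**Figure D3:**
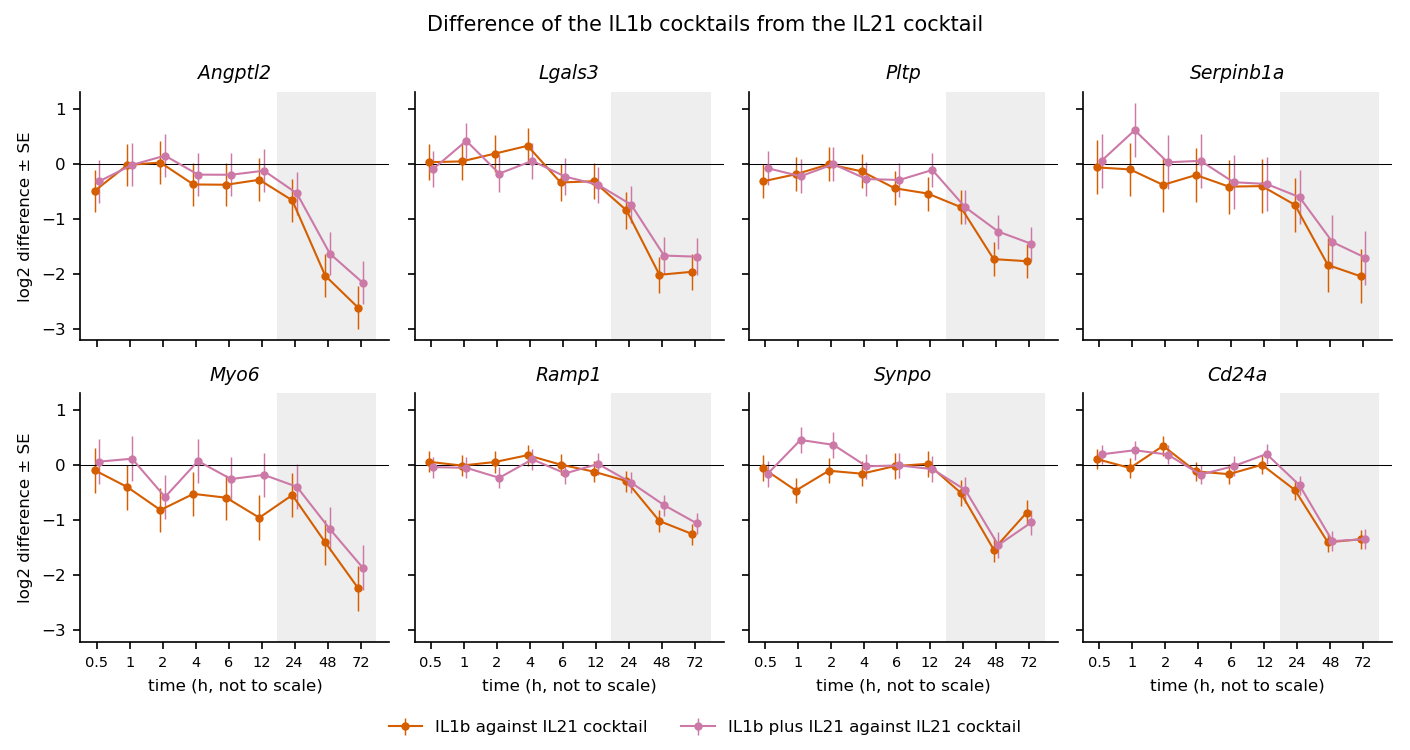
Log2 difference (± SE) of the IL1b cocktail and of the IL1b plus IL21 cocktail from the IL21 cocktail at each time (h, not to scale), 3 libraries a group; shading marks the times that chose the genes. Up to 12 h the differences lie between -0.96 (Myo6, IL1b cocktail, 12 h) and 0.61 (Serpinb1a, IL1b plus IL21 cocktail, 1 h), and they reach -0.86 to -2.61 at 72 h in the IL1b cocktail.

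The times up to 12 h did not choose the genes, so they were tested. The question is whether IL1b cultures were already lower before the late divergence. At 4 to 12 h (means over 4, 6 and 12 h) the main test called 0 of 8 genes between the IL1b and IL21 cocktails, and 0.162% of all genes. Over all genes 751 had an unadjusted p under 0.05 there; edgeR called 32 and DESeq2 45. Nearest was Myo6, at -0.69 ± 0.23 (limma, adjusted p = 0.394, unadjusted p = 0.00449). The spread behind these SEs is shared over all groups, so it takes in the late libraries that chose the genes. The main test up to 12 h is thus not fully separate from those libraries. With only the groups compared in the fit, Myo6 was called (limma, -0.69, adjusted p = 0.00318). Its libraries were lower in the IL1b cocktail without overlap at 1, 2, 6 and 12 h and overlapped at 0.5 and 4 h. At 2 h the gap was narrow, with 6.05 to 7.01 CPM against 7.30, 7.85 and 28.2 in the IL21 cocktail. Libraries of a course deviated together in this comparison (r of 0.514, 0.291 and 0.488 in courses 4, 5 and 6), and with course as a block at each time, an alternative chosen after seeing the data, 3 of 8 were called. All 3 were lower with IL1b: Myo6 (adjusted p = 0.000417), Angptl2 (-0.35 ± 0.09, adjusted p = 0.0181) and Pltp (-0.37 ± 0.10, adjusted p = 0.0261). In that fit 1.59% of all genes were called, 1.18% lower. With course as 1 block over all times none of the 3 was called (0 of 8, 0.444% of all genes). Pltp had 0.0813 and 0.392 CPM in the IL1b cocktail at 6 and 12 h against 0.296 and 0.812 in the IL21 cocktail. These were few reads per library: 2 against 4 to 10 at 6 h, and 6 to 13 against 14 to 30 at 12 h.

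At 12 h alone the main test again called 0 of 8 (0.0269% of all genes; 269 genes had an unadjusted p under 0.05, edgeR called 2 and DESeq2 5). With course as a block at each time Myo6 was called, at -0.96 ± 0.21 (adjusted p = 0.0358, 0.175% of all genes called, 0.0942% lower); with 1 block over all times 0 of 8 were (0.0471% of all genes). At 0.5 to 2 h the main test called 0 of 8 (0.0471% of all genes; 691 at an unadjusted p under 0.05, 4 by edgeR and 9 by DESeq2). The block at each time called 0 of 8 there as well, and 0.599% of all genes.

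For IL1b plus IL21 against the IL21 cocktail the main test called 0 of 8 genes at 0.5 to 2 h, 4 to 12 h and 12 h, with and without the block. Of all genes 0%, 0.00673% and 0.0202% were called, and 872, 229 and 165 had an unadjusted p under 0.05. There edgeR called 0, 1 and 2 genes and DESeq2 0, 3 and 3. The block at each time called 0%, 0.074% and 0.074% of all genes. The 8 log2 differences at 4 to 12 h lay between -0.23 and 0.00 with SEs of 0.10 to 0.28. Between the 2 IL1b cocktails at 12 h 0 of 8 were called (0% of all genes; 211 at an unadjusted p under 0.05, 0 by edgeR and 1 by DESeq2), and 0 with the block at each time (0.0538% of all genes). Myo6 had the widest gap, 0.78 ± 0.41 higher with IL21 added (adjusted p = 1), with the libraries apart as described above.

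The genes were also followed from no cytokines to IL6 with TGFb in courses 1 to 3, where the part up to 12 h did not choose them. At 0.5 to 2 h 1 of 8 was called (12.4% of all genes, 6.05% lower): Cd24a was lower, by -0.68 ± 0.14 (adjusted p = 0.00051). At 2 h its libraries lay at 119 to 136 CPM with IL6 and TGFb and at 239.6 to 245 CPM without, so the groups were far apart. Without course 2 its adjusted p was 0.0587, at -0.65. At 4 to 12 h 3 of 8 were called (13.5% of all genes, 7.15% higher), all higher: Angptl2 by 2.66 ± 0.36 (adjusted p = 1.63e-07), Lgals3 by 0.83 ± 0.21 (adjusted p = 0.00406) and Ramp1 by 0.68 ± 0.11 (adjusted p = 8.09e-06). Without course 2 Lgals3 had an adjusted p of 0.0744, and without course 1 Cd24a was called lower (-0.36, adjusted p = 0.00274; -0.32 with an adjusted p of 0.161 in all 3). Libraries of a course deviated together in these comparisons too, and with the block at each time Myo6 joined them (0.71 ± 0.23, adjusted p = 0.0370; 17.2% of all genes called).

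At 12 h 6 of 8 were called (9.06% of all genes, 5.09% higher and 3.97% lower). Angptl2 was at 42.0, 53.3 and 41.3 CPM with IL6 and TGFb and at 3.13, 3.92 and 4.76 without, a difference of 3.38 ± 0.63 (adjusted p = 8.69e-05). Lgals3 was at 2.04, 3.21 and 2.96 CPM against 0.160, 0.701 and 0.786 (1.67 ± 0.37, adjusted p = 0.00104). Ramp1 was at 3.64, 2.47 and 3.70 CPM against 0.842, 0.330 and 0.829 (1.71 ± 0.20, adjusted p = 4.12e-09). In none of these 3 did the groups overlap. Synpo went the other way, at 5.16, 6.16 and 5.80 CPM against 13.96, 10.1 and 12.6 (-1.03 ± 0.26, adjusted p = 0.00580). Myo6 was called higher (1.61 ± 0.49, adjusted p = 0.0240), at 2.43 to 8.55 against 0.536 to 2.77 CPM. The groups overlapped, but within courses it was higher in each of the 3, by 1.47 to 1.87 on the log2 scale. Pltp was called higher as well (0.64 ± 0.19, adjusted p = 0.0227), on 5 to 11 reads per library with the cytokines and 0 to 2 without. Without course 3 the adjusted p was 0.316 for Pltp, 0.395 for Myo6 and 0.219 for Synpo; without course 1 it was 0.150 for Pltp.

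The effect of IL6 and TGFb at 4 to 12 h differed from that at 0.5 to 2 h for 2 of 8 genes, both higher (10.8% of all genes, 5.6% higher). Angptl2 had a difference of effects of 2.56 ± 0.51 (adjusted p = 0.000277) and Ramp1 of 0.83 ± 0.16 (adjusted p = 0.00016). Without course 2 Angptl2 had 2.38 with an adjusted p of 0.0598. Lgals3, at 0.84 ± 0.30, did not pass (adjusted p = 0.0655) but did with the block at each time (adjusted p = 0.0181).

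**Figure D4:**
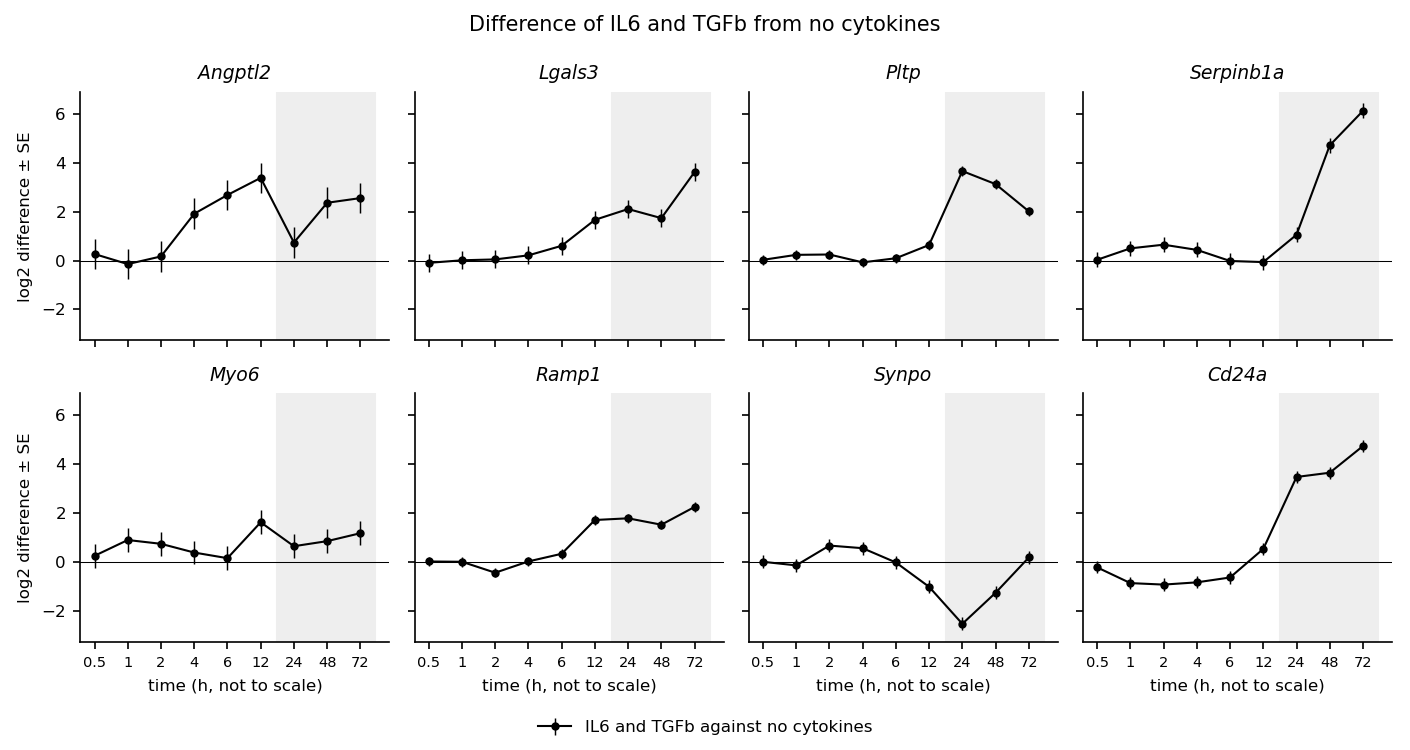
Log2 difference (± SE) of IL6 with TGFb from no cytokines at each time (h, not to scale) in courses 1 to 3, 3 libraries a group; shading marks 24 to 72 h. Serpinb1a reaches 6.13 and Cd24a 4.74 at 72 h, and Synpo is lowest at 24 h (-2.54).

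At 24, 48 and 72 h, where IL6 with TGFb was part of the choice of genes, it lay above no cytokines without overlap for 6, 6 and 5 of 8 genes (25%, 27.8% and 22.6% of the 14695 genes tested). Serpinb1a had 109.9, 71.7 and 68.1 CPM with IL6 and TGFb at 72 h and 0.135, 0.836 and 1.39 without. Cd24a had 78.4, 132 and 135 CPM against 8.14, 2.68 and 2.22. Pltp was at 7.44, 8.03 and 9.61 CPM at 24 h against 0.228, 0.185 and 0.176, from 4 to 6 reads per library. Synpo was lower with the cytokines at 24 h, at 4.94, 4.20 and 5.18 CPM against 34.0, 24.4 and 32.8, and overlapped at 72 h.

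For Angptl2, Synpo and Myo6 the library of course 1 without cytokines at 72 h differed from the other 2. So it did for Cd24a (8.14 CPM against 2.68 and 2.22) and, at low levels, for Serpinb1a (0.135 CPM against 0.836 and 1.39). Angptl2 was at 142 CPM there and at 5.40 and 6.38 in courses 2 and 3. IL6 with TGFb was 23.3 and 16.9 times higher in courses 2 and 3 and lower in course 1, at 0.602 times. Myo6 was 9.16 times higher in course 1, but 0.800 and 1.65 times in courses 2 and 3. Ramp1 was even across courses, 5.02, 4.84 and 5.24 times higher. Libraries of a course did not deviate together between these cultures at 24 to 72 h (r of -0.313, -0.200 and 0.0758 in courses 1, 2 and 3). These ratios therefore match libraries by course number only.

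Without cytokines, 5 of 8 genes differed between 72 and 0.5 h (70.3% of all genes, 41.3% higher and 29% lower). Synpo was 4.30 ± 0.26 higher (adjusted p = 1.62e-18), Lgals3 1.93 ± 0.37 higher (adjusted p = 1.18e-05) and Angptl2 2.98 ± 0.63 higher (adjusted p = 5.52e-05). Without course 1 the difference of Angptl2 was 1.40, and with only the 2 groups in the fit its adjusted p was 0.0751. Ramp1 was lower, at -2.52 ± 0.20 (adjusted p = 3.25e-15), and Cd24a lower, at -1.88 ± 0.25 (adjusted p = 9.37e-09). The median over all genes was 0.13.

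Over the 47 group means the 8 genes were not copies of each other. The 28 pairs had Pearson r from -0.52 (Ramp1 and Synpo) to 0.82 (Angptl2 and Lgals3), with a median of 0.30 and 6 pairs below 0. The groups share libraries, courses and time, so these are descriptions. The genes most like each member, among 10500 with a group mean of at least 5 CPM, were Fgf2 for Angptl2 (r = 0.933), Gja1 for Lgals3 (0.962), Cd5l for Pltp (0.919) and Ppp1r3d for Serpinb1a (0.979). They were Ctsa for Myo6 (0.914), Plcg1 for Ramp1 (0.956), Mapre2 for Synpo (0.865) and G3bp2 for Cd24a (0.836).

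Genes related to the members were tested at 24 to 72 h on means over 24, 48 and 72 h, in tests added after the data had been seen. In the IL1b against IL21 comparison 9.97% of all tested genes were called (4.37% higher and 5.59% lower), with a median of 0.00. Of 7 other galectins and galectin-related genes 3 were lower and 0 higher: Lgals8 (-0.26 ± 0.07, adjusted p = 0.00781), Lgalsl (-0.29 ± 0.10, adjusted p = 0.0417) and Lgals7 (-0.43 ± 0.13, adjusted p = 0.0283). Without 1 course 0 to 3 of them were called. Of 4 other clade B serpins, 8 angiopoietin-like proteins and their receptors, 12 lipid transfer proteins and LXR targets, and 8 genes of CGRP and adrenomedullin signalling, 0 were called in either direction. Their medians were 0.10, -0.01, 0.01 and 0.10. Of these 32 genes 7 had an unadjusted p under 0.05; edgeR and DESeq2 called 0. Libraries of a course deviated together here as well (r of 0.768, 0.523 and 0.572), and with the block at each time, which called 20.5% of all genes, 7 of the 32 were higher and 1 lower.

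Of 22 other unconventional myosins and Myo6 adaptors 5 were higher and 2 lower with IL1b (3 to 5 called without 1 course). Myo10, a myosin of filopodia, was higher (0.34 ± 0.06, adjusted p = 4.03e-06), the opposite direction to Myo6. Of 9 actin-associated genes related to Synpo 1 was higher and 3 lower, among them Palld (palladin, -0.67 ± 0.12, adjusted p = 1.95e-05). Of 6 genes around Cd24a 2 were lower and 0 higher: Cd52 (-0.24 ± 0.07, adjusted p = 0.0141) and Hmgb1 (-0.15 ± 0.05, adjusted p = 0.0333).

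A list of 19 TGF-beta genes held receptors, ligands and SMADs as well as feedback genes. Of these 19, 2 were lower with IL1b and 0 higher: Tgfbr1 (the type I receptor, -0.57 ± 0.13, adjusted p = 0.00226) and Smad3 (-0.21 ± 0.05, adjusted p = 0.00389). Without 1 course 0 to 2 of them were called, and with the block at each time 6 were lower and 1 higher. Of 20 IL-1 and NF-kB response genes 9 were higher and 2 lower, with Tnfaip3, which restrains NF-kB, at 0.99 ± 0.14 (adjusted p = 1.87e-07) and Nfkbia, the inhibitor IkB-alpha, at 0.89 ± 0.12 (adjusted p = 3.45e-08). At 72 h Tnfaip3 was at 105 to 163 CPM in the IL1b cocktail and at 61.0 to 75.9 in the IL21 cocktail, without overlap. CD4 T cell markers moved in this comparison too, with 5 of 11 lower and 0 higher and a median of -0.18 (9 lower and 1 higher with the block at each time). Their part in the results on the 8 genes was not tested. With IL1b plus IL21 against IL21, 6.44% of all genes were called (3.7% higher and 2.74% lower). There 9 of 20 IL-1 and NF-kB genes were again higher and 2 lower, and 0 of the 19 TGF-beta genes were called.

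From no cytokines to IL6 with TGFb 62.9% of all genes were called at 24 to 72 h (32.5% higher and 30.4% lower), so these counts are set against a wide change. Of 4 other clade B serpins 1 was higher and 2 lower: Serpinb5 was higher (2.23 ± 0.11, adjusted p = 1.78e-22), while Serpinb9, the inhibitor of granzyme B, was lower (-3.80 ± 0.14, adjusted p = 5.01e-26), as was Serpinb6b (-3.67 ± 0.15, adjusted p = 1.88e-24). Of 8 other galectins and galectin-related genes 3 were higher and 3 lower, with Lgals1 at 1.91 ± 0.18 (adjusted p = 2.98e-12) and Lgals8 at -1.41 ± 0.13 (adjusted p = 1.18e-12). Of the 19 TGF-beta genes (receptors, ligands, SMADs and feedback genes) 14 were higher and 1 lower. Among the 14 were Smad7, the inhibitory SMAD (1.12 ± 0.07, adjusted p = 9.79e-18), and Skil (1.47 ± 0.15, adjusted p = 3.09e-11). Summed CD8 T cell markers (2 genes) were 9.61 to 41.9 CPM without cytokines and 2.08 to 6.24 with IL6 and TGFb, and myeloid markers 29.7 to 198 and 10.3 to 70.9 CPM; their part in these differences was not tested.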

How the data were processed

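RNA-seq of 141 libraries in 47 groups of 3 was used. The authors deposited 1 table of gene values that the labels call read counts, but each library's column sums to 1000000, so the values are CPM. The submitters' processing notes name TopHat and HTSeq, and mm9 and GRCh37 as builds, with no versions or roles. Multiplying by the recovered depth gave whole reads for 100% of values above 0 (tolerance 0.001), 15952020 to 47068754 reads a library. CPM were scaled with TMM factors over all libraries (edgeR 4.0.16) and tested as log2(CPM + 0.5) with limma 3.58.1 (trend) in R 4.3.3. Each course set was fitted on its own with all its groups, on genes that reached 1 CPM in 3 or more of its libraries: 14695 genes with 38 residual degrees of freedom for the first set, and 14859 genes with 56 for the second. Adjusted p-values are Benjamini-Hochberg over all genes tested, called under 0.05, two-sided. The fit was tried on simulated counts drawn with no course effect. That trial does not cover libraries of a course that deviate together.

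A course is the number shared by library names. Where every course's deviations from the group means correlated over 0.1 between the groups compared, the number was taken to pair libraries. This held for IL1b against IL21 at all times tested, for IL1b plus IL21 against IL21 except at 12 h, and for IL6 with TGFb against no cytokines up to 12 h. The alternatives tried were pseudocounts of 0.1 and 1, no TMM scaling, no filter, a fit of only the groups compared, the replicate block, edgeR's quasi-likelihood test and DESeq2 1.42.0 on the recovered reads, and leaving out each course. A block of course within each time and the tests of other genes at 24 to 72 h were added after seeing the data. The 8 genes, the gene lists and the tests were chosen with earlier results of these data known, and the promoter motifs after the files had been seen. The genes named are the 8 members, the genes most like each by correlation of group means, and up to 4 called genes per list with the highest levels. 1 gene of the list around Cd24a is not reported here, and the list was counted without it.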

Additional observations from a re-analysis of the deposited data

Results flagged for a closer look

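The effect of IL6 with TGFb, as a log2 difference from no cytokines, was larger at 4 to 12 h than at 0.5 to 2 h by 2.56 for Angptl2 and by 0.83 for Ramp1 in a direct test of the difference.

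In 5 further cases a comparison had groups that did not overlap in one direction at one time and in the other direction at another time up to 12 h; the difference between these times was not tested. Lgals3 was 0.33 ± 0.33 (SE) higher in the IL1b than in the IL21 cocktail at 4 h (3.78% of all genes were higher without overlap) and lower at 12 h (-0.31 ± 0.33; 9.21% lower). Cd24a was 0.20 ± 0.18 higher in the IL1b plus IL21 than in the IL21 cocktail at 0.5 h (1.9% higher) and lower at 4 h (-0.17 ± 0.18; 3.84% lower). These 4 differences were no larger than about their SE. Under IL6 with TGFb against no cytokines, Cd24a was lower at 2 h (-0.94 ± 0.25) and 0.53 ± 0.25 higher at 12 h, and Ramp1 lower at 2 h (-0.45 ± 0.20) and 1.71 ± 0.20 higher at 12 h. Synpo went the other way, 0.66 ± 0.26 higher at 2 h and lower at 12 h (-1.03 ± 0.26). In that comparison 12.8% of all genes were lower and 9.19% higher without overlap at 2 h, and 18.8% and 14.2% at 12 h.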

How the results depend on the processing

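Counts of the 8 genes called stayed within 1.5 times in 134 cases and moved in 9. With only the groups compared in the fit, the count was 1 (Myo6) for IL1b against IL21 at 4 to 12 h. For IL6 with TGFb it was 3 at 0.5 to 2 h, 5 at 4 to 12 h and 4 for the difference between them. Without 1 course the IL6 with TGFb counts were 0 to 1 at 0.5 to 2 h, 2 to 4 at 4 to 12 h, 3 to 6 at 12 h and 1 to 2 for the difference. With the replicate block at each time, the count for IL1b against IL21 was 3 at 4 to 12 h and 1 at 12 h; with course as 1 block over all times both were 0. The pairing did not hold for IL1b plus IL21 at 12 h or for 72 against 0.5 h without cytokines. Nor did it hold for IL6 with TGFb against no cytokines at 24 to 72 h. Single values kept their side in 1089 cases; 19 became called, 12 lost a call and 24 changed sign, each of them uncalled in the main test. The late differences moved once, for Pltp at 72 h (IL1b against IL21 with a pseudocount of 0.1, -2.23).

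Signs changed as follows, as ranges without 1 course. In IL1b against IL21, Ramp1 at 4 to 12 h was -0.0351 to 0.0823, and at 12 h Synpo was -0.0412 to 0.10 and Cd24a -0.0555 to 0.0361. Synpo at 4 to 12 h was 0.0013 without TMM scaling. In IL1b plus IL21 against IL21, Myo6 at 0.5 to 2 h was -0.252 to 0.103. At 4 to 12 h Ramp1 was -0.112 to 0.103 (0.0021 without TMM scaling), Synpo -0.101 to 0.0469 and Cd24a -0.00356 to 0.0149, with -0.00201 without course 6. At 12 h Ramp1 was -0.0767 to 0.0958 and Synpo -0.14 to 0.0461. Between the IL1b cocktails, Lgals3 was -0.152 to 0.085, Serpinb1a -0.215 to 0.296 (-0.0257 with a pseudocount of 0.1) and Synpo -0.24 to 0.0873. For IL6 with TGFb, Lgals3 at 0.5 to 2 h was -0.0896 to 0.0668 (0.00826 by edgeR, 0.0137 by DESeq2), and Serpinb1a was -1.07e-05 to 0.232 at 4 to 12 h and -0.328 to 0.27 at 12 h. The difference of effects was -0.17 to 0.175 for Pltp and -0.0205 to 0.232 for Myo6. Serpinb1a at 72 against 0.5 h was -0.0187 to 0.568. The cause was not tested. Pltp and Serpinb1a had means under 1 CPM in 36 and 32 of 47 groups, and low counts limit the precision there.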
